A study of Mus musculus with 3 samples.

Results

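Natural killer cells were taken from single-cell RNA sequencing of leukocytes that infiltrate the pancreatic islets of NOD mice, a strain that develops autoimmune diabetes spontaneously. A cell was counted as a natural killer cell when it held at least 1 unique molecular identifier (UMI, 1 counted transcript) of Ncr1 and at least 2 of Nkg7. It also had to hold at most 1 UMI over Cd3d, Cd3e and Cd3g together, none of Cd8b1 or Cd4 and at most 1 of Cd79a. These limits were met by 137 of the 26142 cells that had at least 1000 UMIs and under 10% of UMIs from mitochondrial genes. The files list 26947 cells in all.

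The 3 libraries (replicates 1 to 3) share 1 condition. Each holds live CD45+ cells sorted from the islets of 2 to 3 pooled female NOD mice, labelled wild type, with no treatment named. The age is given as 15 to 16 weeks in the methods and as 14 to 16 weeks in a legend. The study names 2 independent experiments and does not say which library came from which. With no second group, the natural killer cells were compared with other cells of the same libraries, and no p-value here concerns disease.

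Natural killer cells are innate lymphocytes that kill stressed or infected cells without a rearranged antigen receptor. They weigh signals from activating receptors, such as NKp46 (encoded by Ncr1) and NKG2D (Klrk1), against signals from inhibitory receptors. Inhibitory receptors for MHC class I include many, but not all, of the Ly49 family (Klra genes) and CD94/NKG2A (Klrd1, Klrc1). Killing runs through granules of perforin and granzymes, as it does in cytotoxic CD8 T cells. Many of the receptor genes lie together in the natural killer gene complex, and each of the 25 Klr genes measured here maps to chromosome 6, between 122270596 and 131247362 (mm10). This complex differs in gene content between mouse strains. The reads were aligned to the mm10 reference, which is of C57BL/6 and not of NOD, so the level of any 1 Ly49 gene is uncertain where NOD copies resemble another reference gene.

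The sequences just upstream of 4 genes are shown: Ncr1, which chose the cells, Serpinb9b, whose RNA was in none of the CD8 T cells, and Gzma and Prf1, the genes of granzyme A and perforin. They were picked after their levels were seen. Each run is the 250 bases before the RefSeq transcription start (GRCm38.p6, the mm10 assembly), 5′ to 3′ on the strand of the gene. Capitals mark the letters TCACAC (or GTGTGA on the other strand), the core bound by T-box factors such as Eomes and T-bet, and TGTGGT (or ACCACA), the core bound by RUNX factors. The 2 motifs do not overlap each other in these windows.
Ncr1 (chr7:4337474-4337723, + strand): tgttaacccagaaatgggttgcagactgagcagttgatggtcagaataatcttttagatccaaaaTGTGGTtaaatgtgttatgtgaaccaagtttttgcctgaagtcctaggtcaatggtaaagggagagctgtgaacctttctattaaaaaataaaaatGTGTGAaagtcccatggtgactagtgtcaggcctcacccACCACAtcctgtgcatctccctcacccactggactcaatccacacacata
Serpinb9b (chr13:33027164-33027413, + strand): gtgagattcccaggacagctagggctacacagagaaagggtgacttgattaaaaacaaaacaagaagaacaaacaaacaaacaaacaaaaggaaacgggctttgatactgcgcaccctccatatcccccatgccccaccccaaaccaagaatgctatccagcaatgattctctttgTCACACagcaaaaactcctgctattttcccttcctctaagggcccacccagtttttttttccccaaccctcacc
Gzma (chr13:113100982-113101231, - strand): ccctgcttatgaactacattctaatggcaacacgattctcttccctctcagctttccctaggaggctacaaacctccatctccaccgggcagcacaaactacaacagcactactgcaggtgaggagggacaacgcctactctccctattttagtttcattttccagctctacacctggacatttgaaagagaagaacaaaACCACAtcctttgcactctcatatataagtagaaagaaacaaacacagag
Prf1 (chr10:61297586-61297835, + strand): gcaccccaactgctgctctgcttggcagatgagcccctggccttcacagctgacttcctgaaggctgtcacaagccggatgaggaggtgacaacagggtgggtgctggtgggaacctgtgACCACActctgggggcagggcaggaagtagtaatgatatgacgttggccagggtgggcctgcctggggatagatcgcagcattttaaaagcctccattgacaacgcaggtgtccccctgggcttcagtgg
The Ncr1 window held 1 T-box match and 2 RUNX matches, Serpinb9b 1 T-box match, and Gzma and Prf1 1 RUNX match each. Other genes were scanned and are not shown. The windows of Klrb1b, Fcer1g and Eomes held neither motif, and the 2 windows of Klre1 held 1 match each, so a match was not found for every gene scanned. Of all 32851 promoter windows of the same length, 12.29% held the T-box letters and 14.05% the RUNX letters. A match describes the letters and is not a measured binding site. The annotated genes start at or near the end of these windows, Ncr1 at 4337724 to 4345164 of chromosome 7, Serpinb9b at 33027416 to 33041884 and Gzma at 113093825 to 113100981 of chromosome 13, and Prf1 at 61297833 to 61304680 of chromosome 10 (GENCODE M21).

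Natural killer cells were rare in each library. There were 46 among 5727 cells in replicate 1, a share of 0.803% (exact binomial 95% interval 0.589 to 1.07). In replicate 2 there were 38 among 9199 cells, or 0.413% (0.292 to 0.567), and in replicate 3 there were 53 among 11216, or 0.473% (0.354 to 0.618). The mean was 0.563% ± 0.210 (SD, n = 3). Replicate 1 was the highest, and its interval did not overlap that of replicate 2. The intervals cover counting error only. The natural killer cells carried 170052, 248130 and 318584 UMIs in replicates 1, 2 and 3, with medians of 3666.5, 6326 and 5639 UMIs per cell, below those of CD8 T cells in the same libraries (4893.5, 8422 and 6983). Libraries shared 12 to 29 cell barcodes with each other, and no natural killer barcode was among them.

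The limits left out most cells with an Ncr1 UMI. Of the 396 such cells, 205 had 2 or more Cd3 UMIs, 103 had fewer than 2 Nkg7 UMIs, 29 had more than 1 Cd79a UMI, 27 had Cd4 and 12 had Cd8b1, and a cell could fail on several. The gate held 34.6% of these cells and 37.3% of all Ncr1 UMIs, 290 of 778. In the other direction, 86 cells met every limit except Ncr1, and 55 of them held Klre1, a lectin-like receptor gene of natural killer cells. Pooled over libraries, these 86 cells had 3025 CPM of Gzma (UMIs scaled to a total of 1000000) and 817 CPM of Tyrobp, so 137 is a count of cells in which Ncr1 was captured and not of every cell of this kind.

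Just inside the Nkg7 limit, the 15 cells with exactly 2 Nkg7 UMIs had 2837 CPM of Gzma and 301 CPM of Klre1. Just outside it, the 19 cells with 1 Nkg7 UMI had 2613 CPM and 307 CPM, nearly the same levels. At the Cd3 limit, the 36 cells with 1 Cd3 UMI had 4565 CPM of Gzma and the 16 cells with 2 Cd3 UMIs, just outside, had 3366. The 105 cells with 3 or more Cd3 UMIs had 587 CPM.

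The label was checked against markers that the gate did not use. Klre1 was found in 100 of the 137 cells, Fcer1g in 128, Tyrobp in 126, Klrk1 in 121, Gzma in 108, Prf1 in 99 and Eomes in 97. Il2rb, a chain of the interleukin-15 receptor on which natural killer cells depend, was in 136. CD8 T cells of the same libraries also carried Il2rb, Eomes, Klrk1 and Klre1, as given below, so these genes alone do not separate the populations. Klrb1c, the gene of NK1.1, was in only 28; the NK1.1 epitope is known to be absent from NOD mice. Other cell types that the sort could hold were looked at too. Of 15 macrophage, dendritic cell and neutrophil genes, 11 were at 0 in the natural killer cells, C1qa, C1qb and Csf1r among them. The others were Cst3, in 82 of the 137 cells, Cd68 in 4, and Lyz2 and C1qc in 1 each. Of 10 genes of type 2 and type 3 innate lymphoid cells, 7 were at 0, among them Il13 and Il5. Of the rest, Gata3, which natural killer cells also use, was in 39 cells, Il1rl1 in 6 and Arg1 in 2. A count of 0 over all natural killer cells allows a level of up to 4.07 CPM, or up to 2.19% of cells with a UMI. Transcripts of B and antigen-presenting cells were found in some of the cells, with Igkc in 44 cells, Ighm in 38, Cd74 in 29 and H2-Aa in 22, and 13 of the 137 were marked as possible doublets.

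UMIs were summed per library over the natural killer cells and over 1450 CD8 T cells (310, 511 and 629) that had at least 2 Cd3 UMIs, at least 2 of Cd8a and Cd8b1, none of Cd4 and at least 5 of Ccl5, which sets naive cells aside. Of 7673 genes tested and not used in a gate, 1116 (14.5%) passed an adjusted p of 0.05 with edgeR, 586 (7.64%) higher and 530 (6.91%) lower in natural killer cells. The 3 libraries of one population lay wholly above or below those of the other for 27.9% of the genes tested. The called shares of 14.5%, 7.64% and 6.91% are the background for each count of list members below. Log2 fold changes below are natural killer over CD8 T cells, with the standard error after ±. Genes used to choose the cells are given without a test, and T-cell genes that go along with Cd3 are not independent of the gate.

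**Figure D1:**
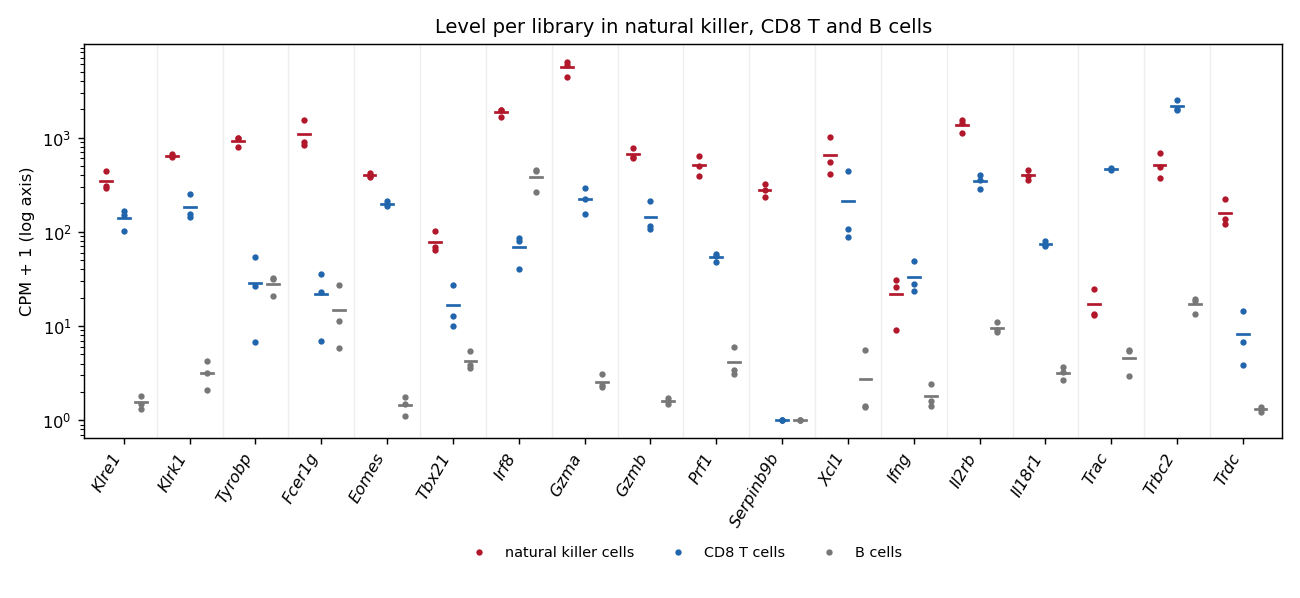
Levels of 18 genes in natural killer cells (red), CD8 T cells (blue) and B cells (grey) on a log axis of CPM + 1, with a point for each of the 3 libraries and a bar at their mean. The Gzma points of natural killer cells lie between 4381 and 6345 CPM and those of CD8 T cells between 154 and 293, while the Ifng points of both populations overlap.

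Some cytotoxic granule genes, Gzma and Prf1 among them, were far higher in natural killer cells than in CD8 T cells, and others were not. Of 17 tested, 8 were higher, 1 was lower and 8 did not pass, with a median log2 fold change of 0.50 against -0.02 over all genes tested. Gzma was at 6345, 4381 and 5939 CPM in natural killer cells and at 293, 221 and 154 in CD8 T cells. No library of either kind came near the other, and the log2 fold change was 4.54 ± 0.16 (adjusted p = 1.1e-15). After each cell was thinned to 1000 UMIs, 68.0% ± 6.46 of natural killer cells and 5.95% ± 0.641 of CD8 T cells held Gzma (SD, n = 3 libraries), and 0.0843% of B cells did, which was taken as the level left by free RNA. Unthinned, the shares were 78.4% and 12.6%.

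Perforin, which opens the target membrane for granzymes, was at 500, 387 and 640 CPM against 46.5, 57.6 and 53.8 for its gene Prf1, a log2 fold change of 3.12 ± 0.18 (adjusted p = 5.7e-12). Gzmb was at 764, 617 and 612 CPM against 210, 113 and 106, again with the libraries apart (2.16 ± 0.16, adjusted p = 5.1e-10). Gzmk, a granzyme typical of memory-like CD8 T cells, went the other way, with 17.6, 20.1 and 15.7 CPM against 171, 281 and 324 (-4.07 ± 0.28, adjusted p = 1.7e-10). Fasl, the ligand of the death receptor Fas, and Ctsw, a cathepsin of killer cells, were higher by 1.27 and 1.24 on the log2 scale. Among those that did not pass were the vesicle genes Rab27a (log2 fold change -1.02) and Unc13d (0.05), the granule protease Gzmm (-0.93) and the death ligand Tnfsf10 (-0.13).

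Inhibitors of granzymes were higher alongside the granzymes. Serpinb9, which blocks granzyme B in the cell that carries it, was at 1100, 1149 and 1014 CPM against 87.7, 117 and 106 (3.26 ± 0.15, adjusted p = 1e-13). Serpinb6b followed with 1176, 734 and 769 CPM against 110, 103 and 107 (2.89 ± 0.16, adjusted p = 3.1e-12). Serpinb9b, a close relative of Serpinb9, was at 323, 274 and 235 CPM in natural killer cells and had no UMI in the 1450 CD8 T cells or the 4315 B cells. Its level was at least 1098-fold higher than the 3 UMIs that a count of 0 allows over all CD8 T cells. It was not in every natural killer cell: 33 of 137 held it, and 5 cells held 42.9% of its 198 UMIs. Serpinb9 relatives are similar in sequence, so reads may be shared among them.

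Besides Serpinb9b, the genes with the largest folds outside the receptor families included Cma1, Tmsb15a and Rab27b. Cma1, the gene of a chymase best known from mast cells, was at 82.3, 105 and 166 CPM with no UMI in CD8 T cells, at least 516-fold higher. Tmsb15a, an actin-binding thymosin, was at 82.3, 117 and 110 CPM, with 2 UMIs over all CD8 T cells. Rab27b, a GTPase of secretory vesicles, was at 118, 92.7 and 94.2 CPM against 1.42, 1.81 and 0.772. The 3 were found in 29, 40 and 40 of the 137 cells, so none of them depends on a single cell.

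Activating receptors and their adaptors were higher in 12 of 22 genes tested, lower in 2 and not past the threshold in 8 (median log2 fold change 1.74). Some, such as Fcgr3, entered the test only through their level in natural killer cells, so the filter set this count in part. The adaptors that carry the signal stood out. Fcer1g, which pairs with NKp46 and CD16, was at 1517, 826 and 898 CPM against 34.6, 21.8 and 5.98 (5.74 ± 0.25, adjusted p = 4.5e-14). Tyrobp (DAP12) was at 976, 790 and 976 CPM against 52.6, 25.4 and 5.79 (5.23 ± 0.33, adjusted p = 3.6e-11). CD8 replicate 1 held the most of both, and it also held the most macrophage RNA, with C1qa at 47.9 CPM against 2.42 and 0 in replicates 2 and 3; the part of that RNA in the adaptor level was not tested. In contrast, Hcst (DAP10), the adaptor of NKG2D in both cell types, was at 370, 286 and 251 CPM against 205, 283 and 310, and the libraries overlapped (0.03 ± 0.19, adjusted p = 0.96).

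Klrk1 (NKG2D) was at 664, 629 and 618 CPM against 155, 142 and 253 (1.69 ± 0.17, adjusted p = 1.2e-07), and the natural killer libraries hardly differed from each other. Fcgr3, the gene of the antibody receptor CD16, was at 35.3, 44.3 and 69.1 CPM against 0.474, 1.61 and 0, higher by 5.99 on the log2 scale. The lectin-like genes Klrb1a, Klrb1c and Klrb1f were higher by 7.99, 6.47 and 5.40. Klrd1 (CD94), at 323, 113 and 267 CPM against 204, 218 and 239, and its activating partner Klrc2, at 135, 92.7 and 91.0 against 118, 113 and 137, overlapped and did not pass (adjusted p = 0.81 and 0.27).

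Cd226, an activating receptor that competes with Tigit for the ligand CD155, was at 58.8, 84.6 and 65.9 CPM in natural killer cells and at 37.5, 12.5 and 13.5 in CD8 T cells. Each natural killer library lay above each CD8 library, and the log2 fold change was 1.83 ± 0.35 (adjusted p = 0.0005). Tigit itself, an inhibitory receptor, was low in both, with 29.4, 16.1 and 15.7 CPM against 26.6, 25.4 and 21.2 (-0.46 ± 0.40, adjusted p = 0.57). Cd96, another receptor of CD155, was at 29.4, 20.1 and 43.9 CPM against 29.4, 29.2 and 32.4 (-0.07 ± 0.34, adjusted p = 0.94). Tigit rested on 14 UMIs and Cd96 on 24 in the natural killer cells, so differences of the size of their standard errors were not detectable at this depth. UMIs of Cd226 were in 28 cells and of Tigit in 13.

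The Ly49 receptors, not all of which are inhibitory, were all higher where they could be tested. Of 11 Klra genes in the files, 7 had enough counts to be tested and all 7 were higher in natural killer cells, with a median log2 fold change of 6.34. Some of them, Klra4 and Klra8 included, entered the test only through their level in natural killer cells. The count and the median were therefore set in part by the filter on low counts. Klra1 was at 506, 371 and 534 CPM against 18.02, 15.7 and 17.6. Klra4 was at 370, 165 and 282 CPM against 0.474, 1.61 and 1.16 (7.48 ± 0.31, adjusted p = 2.1e-14). Klra8 was at 200, 177 and 251 CPM against 3.79, 0.403 and 0 (7.71 ± 0.46, adjusted p = 1.2e-11). Summed over the family, natural killer cells held 1535, 1112 and 1497 CPM and CD8 T cells 39.8, 27.2 and 26.4, and this sum is the same however reads were split among the family's genes, although reads too ambiguous to count are missing from it. Klra2 and Klra6 had no UMI in natural killer cells.

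The list of other inhibitory receptors split, with 5 of 12 tested higher, 5 lower and 2 not past the threshold. The list name does not hold for each member, and Klri2 is counted in it without being itself an inhibitory receptor. Klrb1b, the receptor of the lectin Clr-b, was at 776, 617 and 518 CPM against 8.06, 4.84 and 2.12, a log2 fold change of 6.99 ± 0.22 (adjusted p = 3.1e-16). Klri2, which pairs with Klre1, was at 323, 254 and 330 CPM against 13.3, 26.8 and 25.1 (3.62 ± 0.21). Klre1 itself was at 435, 290 and 301 CPM against 148, 102 and 164, a smaller difference with the libraries still apart (1.16 ± 0.17, adjusted p = 3.2e-05). The lower members were checkpoint receptors of activated T cells. Pdcd1 (PD-1) was at 70.6, 24.2 and 34.5 CPM against 295, 269 and 312 (-3.02 ± 0.25), and Havcr2 (TIM-3) held 1 UMI in all natural killer cells against 50.3, 78.2 and 52.3 CPM (-5.54 ± 0.66). Lag3 and Ctla4 were lower by -3.23 and -2.51. Klrc1 (NKG2A), also lower (-0.78 ± 0.23, adjusted p = 0.023), lost its call without replicate 3 (-0.32 ± 0.26, adjusted p = 0.59).

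**Figure D2:**
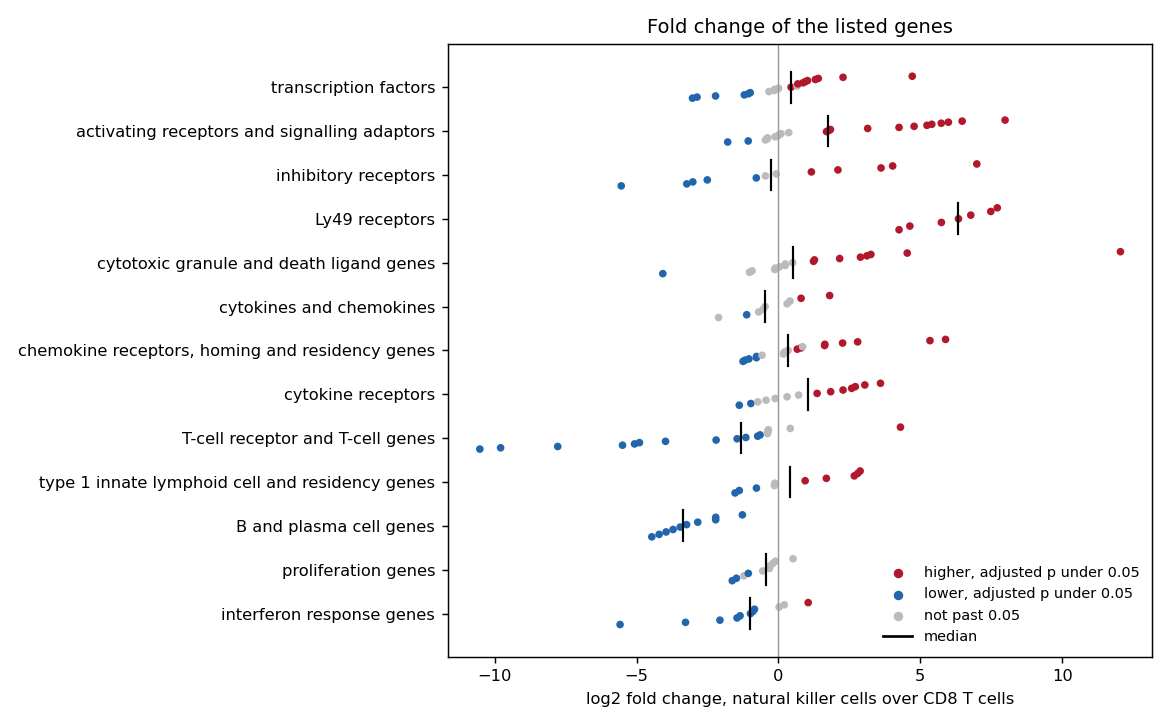
Log2 fold change of natural killer over CD8 T cells (horizontal axis) for the tested genes of 13 lists (rows), with genes used in a gate left out, colour showing the side of the adjusted p of 0.05 and a black bar the median of each list. The 7 Ly49 genes lie right of 0 and the 10 B-cell genes left of it; the outermost points, such as Serpinb9b and Themis, have no UMI in 1 population, so their position is set by the fit and not measured.

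Among transcription factors, 9 of 21 tested were higher, 6 lower and 6 not past the threshold. Irf8, a factor that natural killer cells and myeloid cells use, was at 1958, 1951 and 1635 CPM against 78.2, 84.0 and 39.5 in CD8 T cells (4.71 ± 0.17, adjusted p = 1.2e-15). In B cells, which also use Irf8, the mean was 385 CPM. Tbx21 (T-bet) was at 99.97, 68.5 and 62.8 CPM against 26.6, 11.7 and 9.07 (2.28 ± 0.31). Eomes was at 388, 383 and 418 CPM against 195, 189 and 211, with very little spread within each population, a log2 fold change of 0.86 ± 0.15 (adjusted p = 0.0002). Thinned to equal depth, 37.0% ± 4.45 of natural killer cells and 18.4% ± 2.95 of CD8 T cells held Eomes, so this factor was shared by both populations.

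Id2 and Nfil3, factors of early innate lymphocyte development, were higher by 1.02 and 1.41 on the log2 scale, and Gata3 and Rora by 1.30 and 0.94. The lower members included Bcl11b, a factor that fixes the T-cell fate, at 11.8, 24.2 and 50.2 CPM against 162, 235 and 274 (-3.03 ± 0.26, adjusted p = 5.2e-09), and Tox, a factor of T-cell exhaustion, at 23.5, 12.1 and 18.8 against 212, 85.4 and 92.2 (-2.87 ± 0.30). Zbtb16 was too low to be tested, with 8 UMIs in 8 cells. Ets1 and Stat4 were at nearly the same level in both populations (-0.14 ± 0.12 and 0.01 ± 0.16, adjusted p = 0.58 and 0.99).

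Of 14 cytokine receptor genes tested, 7 were higher, 2 were lower and 5 did not pass (median log2 fold change 1.04). Il2rb was at 1129, 1519 and 1438 CPM against 284, 402 and 356 (1.84 ± 0.13, adjusted p = 2.4e-10). The interleukin-18 receptor chains Il18r1 and Il18rap were higher by 2.28 ± 0.17 and 2.71 ± 0.20, and Il12rb2, a chain of the interleukin-12 receptor, by 3.04 ± 0.27. Its partner chain Il12rb1 had no UMI in natural killer cells, against 24 UMIs over the far larger CD8 sums. At this depth that does not show that Il12rb1 was lower. Il2rg, the chain shared by several interleukin receptors, did not pass (0.31 ± 0.16, adjusted p = 0.28). Ifngr1, which binds interferon gamma, was at 2487, 2426 and 2332 CPM against 679, 937 and 975 and was found in all 137 cells. Kit, the stem cell factor receptor, was at 64.7, 161 and 72.2 CPM against 6.64, 7.05 and 8.30. Il7r, the interleukin-7 receptor, was lower, with 165, 56.4 and 50.2 CPM against 168, 194 and 210 (-1.38 ± 0.27, adjusted p = 0.00085). Natural killer replicate 1 reached almost the lowest CD8 library for this gene.

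Of 16 cytokine and chemokine genes, 9 could be tested, of which 2 were higher, 1 was lower and 6 did not pass, beside the 14.5% called over all genes. Xcl1, a chemokine that attracts cross-presenting dendritic cells, was at 1006, 411 and 556 CPM against 435, 86.2 and 105. It was higher in each library, though natural killer replicate 2 lay below CD8 replicate 1, and replicate 1 was the highest in both populations (1.80 ± 0.19, adjusted p = 1.5e-07). Without the library as a block it did not pass (adjusted p = 0.12). Ifng was at 29.4, 8.06 and 25.1 CPM against 47.4, 27.2 and 22.6 and did not pass (-0.70 ± 0.40, adjusted p = 0.32). It was held by 11 of 137 natural killer cells, with 15 UMIs in all. Ccl3 and Ccl4 overlapped between populations (log2 fold changes -0.54 and 0.41, adjusted p = 0.54 and 0.32), while Tgfb1 was higher by 0.80 ± 0.15 and Ltb lower (-1.12 ± 0.21). Tnf, Lta, Il2 and Il10 had no UMI in natural killer cells, against 74, 20, 28 and 28 UMIs over the far larger CD8 sums.

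**Figure D3:**
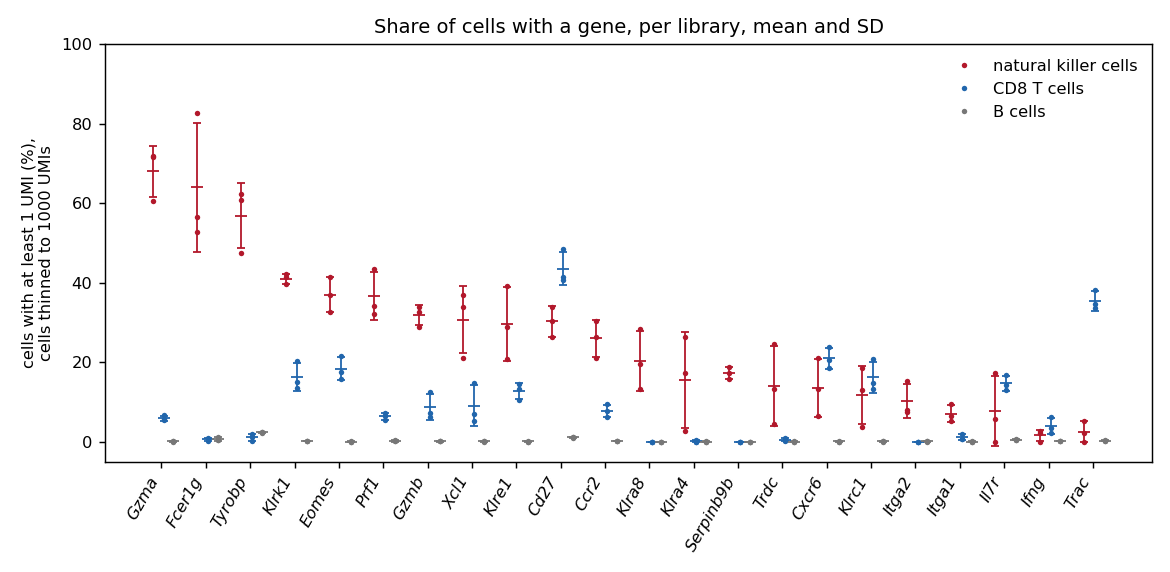
Share of cells with at least 1 UMI of each gene (vertical axis, percent) after thinning each cell to 1000 UMIs, with points for the 3 libraries and bars for mean ± SD, in natural killer (red), CD8 T (blue) and B cells (grey). The mean share with Gzma is 68.0% in natural killer cells against 5.95% in CD8 T cells, and that with Trac 2.48% against 35.4%.

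Genes of homing and tissue residency did not move as a group: 8 of 19 tested were higher, 5 lower and 6 not past the threshold (median log2 fold change 0.34). The integrin genes Itga2 (CD49b), a marker of circulating natural killer cells, and Itga1 (CD49a), a marker of tissue-resident ones, were both higher. Itga2 was at 124, 92.7 and 78.5 CPM against 0.949, 1.21 and 1.74 (5.89 ± 0.41). Itga1 was at 58.8, 64.5 and 87.9 against 17.1, 8.26 and 6.56 (2.79 ± 0.36). Itgam (CD11b), gained late in natural killer maturation, was at 94.1, 48.4 and 18.8 CPM against 0.949, 1.61 and 0.386, with a spread of about the size of its mean (53.8 ± 37.9, SD, n = 3).

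Ccr2, a receptor for inflammatory chemokines, was at 318, 222 and 424 CPM against 75.4, 98.1 and 103, with the libraries apart (1.64 ± 0.18, adjusted p = 4.5e-07). Cxcr6, a receptor of resident lymphocytes, was lower, with 112, 226 and 235 CPM against 292, 338 and 282 (-0.78 ± 0.19, adjusted p = 0.0048), as were Ccr7 (-1.17) and S1pr1 (-1.25). Cxcr6 lost its call when no Cd3 UMI was allowed in natural killer cells (-0.54, adjusted p = 0.10). S1pr5, through which mature natural killer cells leave tissues, had 1 UMI in natural killer cells, and Itgae (CD103) had none.

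The list of type 1 innate lymphoid cells, the close relatives of natural killer cells, gave no single direction: 5 of 10 tested were higher, 3 lower and 2 not past the threshold. Tmem176a was at 135, 24.2 and 22.0 CPM against 19.0, 4.03 and 2.70, and Tmem176b at 76.5, 36.3 and 25.1 against 13.8, 2.22 and 3.28. Both were highest in natural killer replicate 1. Itga1 and Rora were among those higher, and Cxcr6, Il7r and Inpp4b were the 3 lower. The comparison is with CD8 T cells, which express several of these genes, so these folds do not say how many of the 137 cells are type 1 innate lymphoid cells.

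T-cell genes were lower in 12 of 18 tested, higher in 1 and not past the threshold in 5, and since the gate limited Cd3, this count is a check of the gate. Trac was at 23.5, 12.1 and 12.6 CPM against 466, 469 and 452 (-5.07 ± 0.27), with 11 UMIs in 8 of the 137 cells. Themis, a T-cell signalling gene, had no UMI against 76.3, 80.6 and 91.8 CPM, at least 20.8-fold lower. Cd5 and Cd6, surface brakes on the T-cell receptor, held 2 and 6 UMIs and were lower by -5.49 and -4.90.

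Transcripts of other receptor constant regions were plain in the same cells. Trbc1 was at 388, 423 and 480 CPM against 932, 373 and 802, and Trbc2 at 370, 488 and 684 against 1950, 2478 and 2004. Trbc2 was lower with the libraries apart (-2.20 ± 0.15), while the Trbc1 libraries overlapped (-0.73 ± 0.19, adjusted p = 0.01). Trdc, the delta chain constant region, was the member that was higher, with 135, 121 and 220 CPM against 2.85, 13.3 and 5.79 (4.30 ± 0.34, adjusted p = 2.1e-09). Trdc was in 68 cells and Trac in 8, with 4 holding both, and Trac or a Trbc transcript was in 126 of the 137. Reads at the 3′ end count a constant region whether or not it is joined to a variable region. The delta variable segment Trdv4 was in 10 of the 137 cells and the gamma constant region Tcrg-C4 in 19. Tcrg-C4 did not pass (log2 fold change 0.42, adjusted p = 0.45), and Tcrg-C1 and Tcrg-C2 had no UMI in natural killer cells. Whether some of the cells are gamma-delta T cells was not tested. In B cells the 3 genes Trac, Trbc2 and Trdc were at 3.63, 16.1 and 0.310 CPM on average.

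Genes of the signal response differed as well. Of 11 interferon response genes tested, 8 were lower in natural killer cells, 1 was higher and 2 did not pass. Ifi27l2a was at 17.6, 52.4 and 15.7 CPM against 1175, 1252 and 1275 (-5.58 ± 0.25, adjusted p = 6.1e-14). Ifit1 was at 5.88, 12.1 and 12.6 CPM against 12.8, 99.5 and 140 (-3.27 ± 0.38), with CD8 replicate 1 close to the natural killer libraries. Irf7 was the exception, at 194, 161 and 207 CPM against 72.6, 90.9 and 82.8 (1.05 ± 0.18, adjusted p = 0.00022).

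The remaining genes with the largest folds downward were T-cell genes and genes of varied kinds. Rflnb, which binds the actin linker filamin, and the unnamed Gm8369 had no UMI in natural killer cells, at least 57.0-fold and 36.7-fold lower. Penk, which encodes the opioid peptide precursor proenkephalin, held 1 UMI against 153, 222 and 144 CPM. Tbc1d4, a regulator of glucose transporter traffic, held 2 UMIs against 184, 171 and 231 CPM. The noncoding transcript BE692007 held 4 UMIs, and Slfn1, of the schlafen family, 5.

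Other cell types left little RNA in natural killer cells. All 10 B and plasma cell genes tested were lower than in CD8 T cells. The natural killer gate limited Cd79a and the CD8 gate did not, so this count is set in part by the gates, and among cells under 6000 UMIs 2 of 5 tested were lower. Summed over the 12 genes, natural killer cells held 623, 480 and 301 CPM and CD8 T cells 11550, 2822 and 1345. The high sum of CD8 replicate 1 came mostly from Igkc at 7664 CPM, and without replicate 1 the count was 8 lower of 12 tested. The source of this RNA in the CD8 sums was not tested. Islet endocrine and exocrine genes summed to 135, 16.1 and 18.8 CPM in natural killer cells, with Ins2 at 58.8, 8.06 and 3.14 CPM and 16.9 CPM in B cells on average. Of 9 immediate early and heat shock genes tested, 2 were higher, 1 was lower and 6 did not pass, beside the 14.5% called over all genes. Of 10 proliferation genes, 3 were lower and 7 did not pass, beside the same share. Mki67, a marker of dividing cells, was in 3 natural killer cells, and 1 of them held 76 of its 85 UMIs.

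A second comparison took only CD8 T cells that carry granzymes. The same natural killer sums were set against the 401 CD8 T cells (85, 147 and 169) with at least 1 UMI of Gzma or Gzmb, which makes both granzymes gate genes. Of 5516 genes tested, 904 (16.4%) passed, 475 (8.61%) higher and 429 (7.78%) lower. Even among cells chosen for a granzyme, Gzma was at 874, 685 and 521 CPM against 6345, 4381 and 5939 in natural killer cells. The Gzmb levels, at 625, 351 and 356 CPM, overlapped those of natural killer cells. Both are given without a test.

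Prf1 was at 52.4, 71.4 and 71.5 CPM in granzyme-bearing CD8 T cells, still far below natural killer cells (2.81 ± 0.20, adjusted p = 1.7e-10). Serpinb9b was again without a UMI, at least 344-fold higher in natural killer cells. Of 14 cytotoxic genes tested besides the gate genes, 6 were higher, 1 was lower (Gzmk, -4.39) and 7 did not pass. All 7 Ly49 genes tested were higher, with a median log2 fold change of 5.35, and so were 12 of 20 activating receptors and adaptors. The filter set these counts in part, as in the first comparison. Over all genes tested in this comparison, 16.4% passed.

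Spry2, a brake on growth factor signalling, was at 300, 230 and 204 CPM against 5.66, 9.39 and 0.650 (5.38 ± 0.34, adjusted p = 3.6e-11) and was held by 84 of the 137 cells. Xcl1 was at 317, 30.7 and 24.7 CPM in granzyme-bearing CD8 T cells, with replicate 1 far above the others, and at 1006, 411 and 556 in natural killer cells (3.01 ± 0.32). Eomes was at 166, 166 and 163 CPM against 388, 383 and 418 (1.15 ± 0.17, adjusted p = 2.5e-05). Cxcr6 was at 371, 570 and 486 CPM against 112, 226 and 235 (-1.43 ± 0.18, adjusted p = 3.3e-06), and Havcr2 at 59.4, 141 and 105 CPM against 1 UMI. Pdcd1 (-2.98 ± 0.27) and Ctla4 (-2.76 ± 0.28) were lower too. Cd226 was higher by 1.31 on the log2 scale (adjusted p = 0.0091). That call held in 5 of the 11 alternative settings that tested it, against 13 of 13 in the first comparison.

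Natural killer cells differed among themselves in the Ly49 genes they held. Over the 11 genes, 20 cells held none, 30 held 1, 26 held 2, 14 held 3 and 47 held 4 or more, up to 7 in 3 cells. Klra1 was in 102 cells, Klra4 in 65, Klra8 in 56, Klra9 in 40 and Klra7 in 36. Klra4 and Klra8 were together in 41 cells, which is most of the cells that held Klra8. Klrc1 (NKG2A) was in 40 cells, of which 8 also held Klra4 and 5 Klra8. These counts are a description with no test: how many genes are seen in a cell rises with its UMIs, and reads of similar Ly49 genes can be split.

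Pairs of other genes were counted in the same way. Gzmb was in 67 cells, of which 63 also held Gzma. Itga2 was in 45 cells and Itga1 in 28, with 14 holding both, and Eomes was in 33 of the 45 and 22 of the 28. Cd27, kept by less mature natural killer cells, was in 102 cells and Itgam in 21, with 10 holding both. A clustering of the 137 cells split off a single cell, and the first principal component held 2.01% of the variance, so no subset is described.

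Library differences within the natural killer cells touched several of these genes. Itgam was highest in replicate 1 (94.1 CPM) and lowest in replicate 3 (18.8 CPM), and Trdc, Klrg1 and Ccr2 were highest in replicate 3 and Fcer1g, Xcl1, Tmem176a and Il7r in replicate 1. With 1 condition and 38 to 53 cells in each library, mice, day and preparation cannot be told apart.

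Outside the gate, 121 cells (43, 42 and 36) met every other limit and held Ncr1 but had 2 or more Cd3 UMIs. They are a mixture: 16 cells with 2 Cd3 UMIs had 3366 CPM of Gzma and no Trac UMI, pooled over libraries. The 105 cells with 3 or more had 587 CPM of Gzma and 93.0 CPM of Trac. The values below are for all 121 cells. Klra1 was at 775, 396 and 428 CPM in them, which overlapped the natural killer range, and the sum of the Ly49 genes, at 1995, 1143 and 1014 CPM, overlapped it too. Tyrobp was at 943, 448 and 418 CPM, below natural killer cells of the same library in each case. The sums of the activating list (4237, 3228 and 3529 CPM against 5316, 3788 and 4457) and of the inhibitory list (999.7, 895 and 1083 against 1958, 1507 and 1466) were also lower in each library. Gzma was at 1580, 542 and 850 CPM, below each natural killer library, and Serpinb9b at 90.9, 99.8 and 104 CPM, also below. Prf1 was at 247, 135 and 237 CPM.

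Their Trdc level was 450, 399 and 355 CPM and their Trac level 77.9, 89.0 and 76.6 CPM, both above each natural killer library, with Trac below each CD8 library. Klra6 was at 43.3, 62.0 and 24.4 CPM and had no UMI in natural killer cells. Klra5 was at 338, 202 and 171 CPM against 94.1, 64.5 and 75.3. Gzmc, a granzyme of innate-like and strongly activated lymphocytes, was at 229 CPM in replicate 1 and at 13.5 and 3.48 in the others. Cells on both sides were chosen by Cd3, so these values are given as a description.

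**Figure D4:**
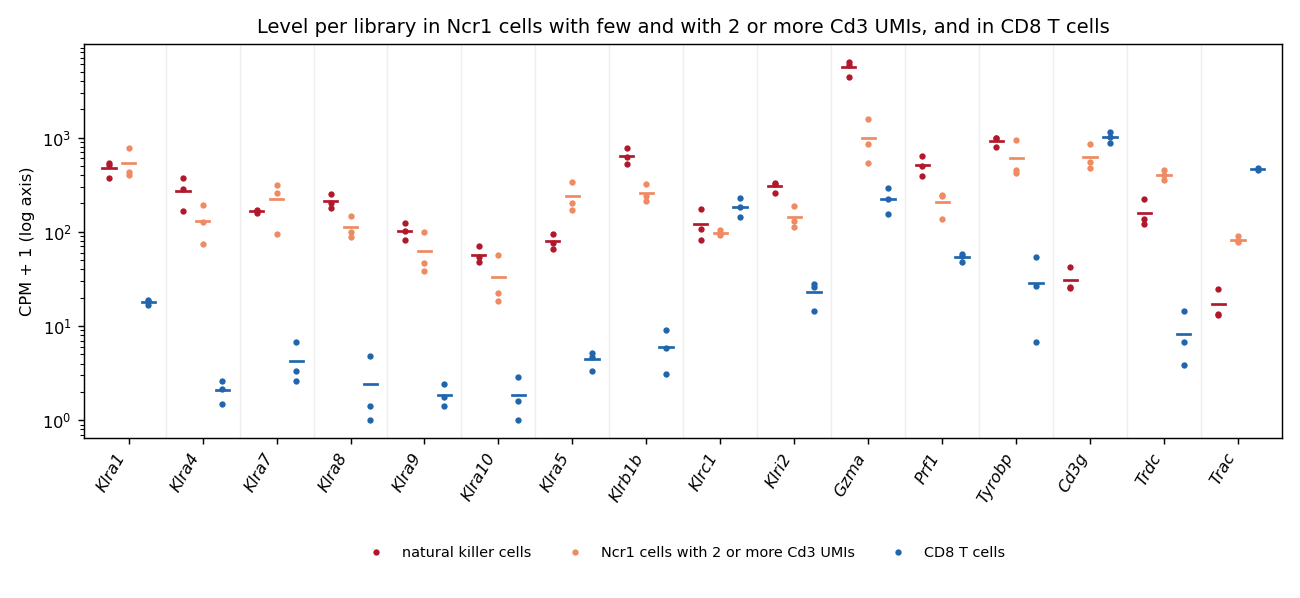
Levels of 16 genes on a log axis of CPM + 1 in natural killer cells (red), cells that meet the other limits but hold 2 or more Cd3 UMIs (orange) and CD8 T cells (blue), with a point for each of the 3 libraries and a bar at the mean. For Trac the orange points, at 76.6 to 89.0 CPM, lie between those of natural killer cells and those of CD8 T cells, and for Klra1 they overlap the red ones.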

How the data were processed

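The authors deposited raw counts for each library, the UMIs per gene and cell from Cell Ranger 6.0.1 (mm10, 32285 genes), without normalization or cell types. Cells with at least 1000 UMIs and under 10% mitochondrial UMIs were kept and gated on raw UMIs as the report states. The members, gene lists and limits were chosen with earlier results of these data known. UMIs were summed per library and population (natural killer sums 170052 to 318584, CD8 sums 2108695 to 5183090) and fitted with edgeR 4.0.16 in R 4.3.3 (filterByExpr, TMM, glmQLFit, glmQLFTest, library as a block). Adjusted p-values are Benjamini-Hochberg values over all genes tested, called at 0.05. They weigh the difference between populations of the same library against how that difference varies over these 3 pools of mice. The standard error is the log2 fold change divided by the square root of F. The 10 genes used in the gates, and Gzma and Gzmb in the second comparison, were never counted as called. CPM is the UMIs of a gene scaled to 1000000 UMIs of its population and library.

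Named genes are the 10 with the largest log2 fold change in each direction among those past the threshold, with the same sign in 3 of 3 libraries and at 100 CPM or more in the higher population, together with up to 8 called members of each of 17 lists and genes known to define natural killer cells. List members named although they did not pass were picked after their values were seen. A gene with no UMI in a population was set to 3 UMIs over that population. Shares of cells with a gene were taken after each cell was thinned to 1000 UMIs, with no cell left out. Exact sign flips of 3 libraries cannot give a p under 0.25. B cells (Cd79a at least 2, no Cd3 or Ncr1 UMI, 4315 cells) gave the background. Possible doublets were marked with code written after DoubletFinder (artificial share 0.25, neighbourhood 0.29, 30 components, 7.6% marked) and kept, and leaving them out was an alternative. Populations of a library come from the same pooled mice, and their deviations from the population means correlated with r of 0.32, 0.24 and 0.18 in the same library and from -0.29 to 0.17 across libraries. Tested on simulated data, the first comparison found 73% of 200 changed genes at a log2 fold of 2 (1 false call) and 10.5% at 1 (0 false), over 7682 genes, and the second 86.5% (7 false) and 17.5% (1 false), over 5527 genes. The simulated counts had the same dispersion (spread beyond counting error) for every gene and no difference between libraries. These figures therefore need not hold for the real counts. Positions are from GENCODE M21 and promoters from RefSeq (GRCm38.p6). A few listed genes are counted in their lists and not reported here.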

Additional observations from a re-analysis of the deposited data

How the results depend on the processing

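The count of genes past the threshold depended on the fit. Without the replicate block (populations unpaired), 410 genes were higher and 258 lower against CD8 T cells, and 337 and 205 against granzyme-bearing CD8 T cells. With DESeq2 1.42.0, the counts were 393 and 288, and 268 and 211. Cells under 6000 UMIs, the limit of the study, gave 341 and 304, and 167 and 118, on fewer genes and cells. Thinning the CD8 sums to the natural killer total (chosen after seeing the data) gave 301 and 288 of 3597 genes, and 308 and 280. With no filter on low counts the second comparison had 682 lower genes, and the share of calls that were higher was 42.3% and 42.5% against 52.5% in both comparisons as reported. With the library size in place of TMM (chosen after seeing the data) it was 64.3% and 65.3%, as the median of all genes moved from -0.02 to 0.11 on the log2 scale. Leaving out each library in turn gave 453 to 598 higher and 403 to 532 lower, and 300 to 527 higher and 237 to 469 lower in the second comparison, which was lowest without replicate 2. No gene called in either comparison as reported was called in the opposite direction under any alternative run.

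The 7 Ly49 genes were called under each setting that tested them, as were Gzma, Prf1, Gzmb, Serpinb9, Tyrobp, Fcer1g, Klrk1, Irf8, Eomes and Trac against CD8 T cells. Xcl1, Trbc1, Tgfb1, Ccr7, Cxcr6 and Ifit1 lost the call without the block (adjusted p = 0.12, 0.12, 0.085, 0.060, 0.10 and 0.10). Tmem176a and Klrg1 lost it there too. Cxcr6 also lost it with no Cd3 UMI allowed in natural killer cells (0.10) and with a Ccl5 limit of 1 (0.070), Klrc1 in 6 of 13 settings, and Lag3 with DESeq2 (0.066). Some genes reversed. Under 6000 UMIs, Ighm was at 0.73 and H2-Aa at 0.12 against CD8 T cells, and Stmn1 at 0.55 in the second comparison. Leaving out 1 library at a time, Jchain ranged from -5.05 to 0.72 (without replicate 1), Ube2c from -4.71 to 1.17 (without replicate 1), and Mki67 from -2.31 (without replicate 3) to 1.67, and in the second comparison from -3.07 to 0.97 (without replicate 1). Mki67 was at -2.29 against CD8 T cells with Klre1 required and -5.35 without marked doublets, and 1 cell holds 76 of its 85 UMIs. H2-Aa was at 0.17 without marked doublets in the second comparison, and the difference in the share of cells with Ccl3 was -1.21 percentage points with no Cd3 UMI allowed. The cause was not tested for any of these. The share of natural killer cells stayed within 1 SD, from 0.410% with Klre1 required to 0.644% with 1 Nkg7 UMI allowed. Natural killer sums limit the depth: a gene at 0 may reach 4.07 CPM.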
